A study of Homo sapiens with 18 samples.

Results

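The 6 h response to A-485 was examined for genes that moved the same way in SKMEL5, WM2664 and A375, 3 cell lines from human melanoma. The members were the 9 arrays of 18 in all whose titles give 6 h: in each line 2 arrays of cells given DMSO, the solvent, and 1 array of cells given A-485 at a dose labelled 3 mM, a unit that was not checked here. The remaining 9 arrays hold the same groups at 24 h. The study set sensitive against resistant lines, and which line is which was not used here. All 3 are established lines known to carry activating BRAF mutations, and no genotype or passage was used beyond the line's name. Each A-485 group is a single array, so its replicate spread is unknown. Whether the DMSO replicates were separate cultures is not stated in the labels, and the p-values rest on the spread of these samples alone, which may be technical.

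A-485 is an inhibitor that takes the place of acetyl-CoA in the catalytic pocket of p300 and CBP, 2 closely related lysine acetyltransferases encoded by EP300 and CREBBP. Both are recruited to enhancers and promoters by transcription factors and acetylate histones there, most characteristically at H3K27. Genes that depend on strong enhancers, such as regulators of cell identity and of growth, are known to be the most sensitive to loss of this activity, and short-lived transcripts show it first. In melanocytes and melanoma, MITF and SOX10 are the regulators of lineage identity, and the BRAF and MAP kinase pathway drives growth and switches on its own feedback inhibitors.

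RNA was read on Affymetrix HG-U133 Plus 2.0 arrays, on which a gene has 1 or more probe sets. Scaled intensity below means the deposited intensity after quantile normalization, which gives every array the same distribution, with values under 32 set to that floor. Differences are log2, A-485 minus DMSO, given as the mean of the 3 lines ± SE or for SKMEL5, WM2664 and A375 in that order. The 2 DMSO arrays of a line had correlations of 0.992 to 0.993 across genes, and on each array 56.9% to 58% of genes exceeded the floor. Over genes, the median SE of the mean difference was 0.09, and that of 1 line 0.13. Before scaling, the 75th percentile of the A-485 array was 1.28, 1.4 and 1.04 times that of the DMSO arrays in the 3 lines.

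The melanocyte markers MLANA, PMEL, TYR, TYRP1 and S100B were high in SKMEL5 and WM2664 and at or near the floor in A375, where AXL, a known marker of melanoma cells with little MITF, was highest. Of the lists of other cell types, 2 of 10 fibroblast, 4 of 8 keratinocyte, 4 of 8 leukocyte and 6 of 8 endothelial markers were at the floor on all 9 arrays, PTPRC, CD3D and CD14 among them. Their summed scaled intensity ran from 1854 to 4933 on DMSO arrays and from 1209 to 4413 on A-485 arrays for fibroblasts, 2599 to 4386 and 2788 to 4404 for keratinocytes, 266.8 to 321.6 and 266.2 to 296.7 for leukocytes, and 293.4 to 415 and 281.1 to 296.4 for endothelium. A375 DMSO replicate 1 carried melanocyte transcripts, with PMEL at 223 against 41 on replicate 2 and MLANA at 264 against 32. WM2664 DMSO replicate 1 read 158 for LUM, a transcript high in SKMEL5, against 41.1 on replicate 2. These 2 arrays stand apart, and counts are also given without both of them, where fewer controls are left to measure the spread.

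Across the 3 lines and after scaling, A-485 raised more genes than it lowered but lowered genes further. With the line as a block, 3178 of 11049 genes passed the test (28.8%), 2069 higher (18.7%) and 1109 lower (10%), by limma with Benjamini-Hochberg adjusted p under 0.05. A gene is called shared below when it passed that test, was measured in every line (64 or more on 1 side), and its A-485 array lay beyond both DMSO arrays in the same direction in each of the 3 lines. Shared genes numbered 1908 higher (17.3% of those tested) and 851 lower (7.7%). Of the 8733 genes measured in every line these were 21.8% and 9.74%, and without regard to the test 32% and 13.7% had the A-485 array beyond both DMSO arrays upward or downward in each line.

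The rises were mostly small. The median shared rise was 0.40, and 46 of the shared higher genes averaged at least 2-fold, 9 of them in each line separately. The median shared fall was -0.54, and 158 averaged at least 2-fold, 66 of them in each line. By line, the median rise was 0.42, 0.47 and 0.28 and the median fall -0.51, -0.60 and -0.43, and A375 gave the smallest of the 3 rises for 1241 genes against 408 for SKMEL5 and 259 for WM2664. Of the shared genes, 333 higher and 315 lower were also called in each line on its own. In the lines, 1694, 2033 and 686 genes were called higher (15.3%, 18.4% and 6.21%) and 1287, 1465 and 898 lower (11.6%, 13.3% and 8.13%).

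These counts depend on the scaling and on single arrays, and the sizes of rises and falls depend on the scaling too. Without scaling, for example, BRPF1 went from 0.48 to 0.79 and TEAD1 from -0.82 to -0.55. Of the called genes, 65.1% were higher, against 89% without scaling between arrays, where the median of all genes shifts from 0.05 to 0.30 and the calls become 3679 higher and 455 lower, and 58% with scaling by the 75th percentile. Without scaling, 1786 of the shared higher genes but only 243 of the shared lower genes remained shared. The total of 3178 became 1645 without the WM2664 A-485 array, 1878 without that of SKMEL5, 2057 without WM2664 DMSO replicate 1, and 1156 without the 2 DMSO arrays that stand apart.

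MYC, the growth-promoting transcription factor, had the largest fall in its weakest line. MYC read 2089 and 2058 on the DMSO arrays of SKMEL5 and 196 on its A-485 array, 2130 and 2177 against 124 in WM2664, and 608 and 569 against 85.0 in A375. Every A-485 array lies far below both DMSO arrays of its line, and WM2664 fell furthest. The mean difference was -3.44 ± 0.21 (adjusted p 0.000387, limma), a 10.8-fold fall, with -3.40, -4.12 and -2.79 in the lines.

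Other members of the MYC network moved in opposite directions. MXD1, a repressor that competes with MYC for its partner MAX, read 89.0 and 73.5 on the DMSO arrays of SKMEL5 and 472 on its A-485 array, 34.8 and 32 against 245 in WM2664, and 176 and 171 against 448 in A375. It was near the floor in the DMSO cells of WM2664, so the rise there is a lower limit, and the mean difference was 2.26 ± 0.25 (adjusted p 0.00195). MNT, another repressor of the same network, was lower at -0.99, -0.70 and -1.26. Of 8 members tested, MXD1 was the only one shared higher, MYC and MNT were shared lower, and 5 passed in neither direction. The shares were 12.5% higher and 25% lower, against 17.3% and 7.7% of all genes. Without the 2 DMSO arrays that stand apart, 1 was shared higher and 2 lower. Without the A375 A-485 array 4 were shared lower. For ribosome biogenesis, a group of processing factors that MYC is known to drive, 5 of 35 were shared lower and 0 higher, with a median of -0.13. That is 14.3% shared lower, against 7.7% of all genes. WDR43, a factor of the small subunit processome, had -0.77, -0.67 and -0.28, and its call ended without scaling. The count of 5 ranged from 1 to 14 when single arrays were left out (14 without the A375 A-485 array, 3 without A375 DMSO replicate 2, 2 without SKMEL5 DMSO replicate 1 or SKMEL5 A-485, and 1 without SKMEL5 DMSO replicate 2 or any WM2664 array), was 0 without scaling, where the median turned to 0.12, and was 1 without the 2 DMSO arrays.

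Regulators and receptors that mark neural crest and melanocyte identity fell together. Of 22 tested, 12 were called lower and 0 higher, and 9 were shared lower, namely MITF, SOX10, SOX5, TFAP2A, SNAI2, ETS1, SOX4 and the receptors ERBB3 and EDNRB. The median over the list was -1.14, against 0.05 over all genes tested, and 40.9% of the list was shared lower against 7.7% of all genes. Without the 2 DMSO arrays 8 were shared lower, and without the A375 A-485 array 14. In bulk RNA, fewer cells of a kind and less RNA per cell cannot be told apart.

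SOX10, which specifies the neural crest lineage and activates MITF, read 3107 and 3300 on the DMSO arrays of SKMEL5 and 774 on its A-485 array, 3072 and 3368 against 1468 in WM2664, and 722 and 913 against 112 in A375. A375 has less SOX10 than the other lines. The mean difference was -2.01 ± 0.28 (adjusted p 0.00375), with -2.05, -1.13 and -2.85 in the lines. The order of the lines depends on the probe set, since the dimmer one gave -1.91, -1.33 and -0.91. SNAI2, a zinc finger repressor of the neural crest, had -2.51, -2.81 and -1.27. MITF itself had a mean difference of -1.69 ± 0.25 (adjusted p 0.00498), with WM2664 falling furthest.

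ERBB3, the neuregulin receptor (chr12:56080108-56103505, GRCh38), combined lineage and signalling roles. ERBB3 read 1503 and 1547 on the DMSO arrays of SKMEL5 and 295 on its A-485 array, 3595 and 3592 against 394 in WM2664, and 321 and 294 against 79.9 in A375. Its DMSO level was highest in WM2664 and lowest in A375, and it fell in each. The mean difference was -2.50 ± 0.20 (adjusted p 0.000789). A dimmer probe set of ERBB3 gave -1.24, with -0.19 in A375, while another gave -2.50, with -1.99 in A375.

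Some other receptors and adaptors were also lower. Of 27 receptor tyrosine kinases and ligands tested, 7 were called lower, 2 higher and 18 neither. Shared lower were 5 (ERBB3, MET, TYRO3, IGF1R and IRS2), which is 18.5% against 7.7% of all genes, and shared higher 0, with a median of -0.34. Without the 2 DMSO arrays 3 were shared lower, as without scaling. IRS2, the adaptor of insulin and IGF receptors, had -1.19, -2.17 and -1.46, and IGF1R, the receptor above it, -0.64, -0.99 and -1.24. NRP2, a semaphorin and VEGF coreceptor, averaged -2.42 ± 0.28 (adjusted p 0.00219) at the probe set used here, while its other 10 gave means between -0.20 and -2.03, all smaller falls. In A375 the probe set used gave -1.59, while the others gave -1.02 to 0.11, some of them at or close to 0. Among TNF receptor family members, TNFRSF21 (death receptor 6) had -1.65, -2.32 and -1.78 and TNFRSF19 (TROY) -2.03, -1.88 and -1.52. Dimmer probe sets of TNFRSF19 were lower in SKMEL5 and WM2664 but gave 0 and -0.11 in A375.

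The MAP kinase output genes listed here, which follow the activity of the BRAF pathway, were lower as a group. The list leaves out EGR1, FOS and IER2, shared higher, and EGR3 and IER3, shared lower, which are counted below as immediate early genes. Of 21 tested, 10 were shared lower (DUSP4, DUSP7, SPRY1, SPRY2, ETV1, ETV4, PHLDA1, CCND1, PLK2 and EMP1) and 1 shared higher (DUSP5), with a median of -0.61. They make up 47.6% and 4.76% of the list, against 7.7% and 17.3% of all genes. DUSP4, a phosphatase that inactivates ERK, read 2396 and 2370 on the DMSO arrays of SKMEL5 and 1087 on its A-485 array, 3818 and 3835 against 1873 in WM2664, and 1969 and 1911 against 461 in A375. No A-485 array overlaps the controls, and A375 fell most. PLK2, a polo-like kinase, averaged -1.95 ± 0.09 (adjusted p 0.000212) with -1.74, -1.89 and -2.23. PHLDA1 had -0.91, -1.0 and -1.74. The count was 8 without the 2 DMSO arrays and 4 without scaling. DUSP5, at 0.32, 0.30 and 0.14, lost its call without any 1 array other than SKMEL5 DMSO replicate 2, A375 DMSO replicate 2 or A375 A-485, and without the 2 DMSO arrays.

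Of 18 TGF-beta and BMP targets tested, 3 were shared lower, PMEPA1, the inhibitory SMAD7 and the pseudoreceptor BAMBI, and 0 shared higher. That is 16.7% shared lower against 7.7% of all genes, with a median of -0.37. SMAD7 had -1.65, -1.19 and -1.28 and BAMBI -2.0, -2.71 and -1.09. PMEPA1 lay at the floor on the A-485 arrays of SKMEL5 and WM2664, so its differences of -1.79 and -3.06 there are lower limits, and its difference in A375 was -2.77. Dimmer probe sets of PMEPA1 gave -0.37 and -0.03 in SKMEL5, -1.41 and -2.40 in WM2664, and -3.13 and -2.80 in A375. SMAD3, a signal transducer of the pathway, averaged -1.92 ± 0.18 (adjusted p 0.00138). Leaving out the 2 DMSO arrays gave 3 shared lower. That count was 5 without the A-485 array of WM2664 or A375, or A375 DMSO replicate 2.

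Among Hippo and YAP genes, the pathway of cell density and stiffness, most shared members were lower, with CCN2 the exception. Of 18 tested, 7 were shared lower (AMOTL1, AMOTL2, TEAD1, TEAD4, NT5E, FJX1 and DLC1) and 1 shared higher, CCN2, with a median of -0.33. Those shares were 38.9% and 5.56%, against 7.7% and 17.3% of all genes. TEAD1, the DNA-binding partner of YAP, had -0.68, -1.07 and -0.72, and FJX1 -1.93, -1.35 and -2.27. CCN2, a secreted matricellular protein and a well-known YAP target, read 475 and 550 on the DMSO arrays of SKMEL5 and 1214 on its A-485 array, 162 and 111 against 708 in WM2664, and 1823 and 1926 against 5137 in A375. It rose in each line, averaging 1.70 ± 0.22 (adjusted p 0.00321). The lower count was 6 without the 2 DMSO arrays and 3 without scaling.

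A few Wnt and Notch regulators were shared lower. Of 21 Wnt genes tested, 4 were shared lower, the nuclear effector TCF7L2, the secreted antagonist DKK1, the receptor FZD7 and the corepressor TLE1. FZD4 was shared higher. That higher count was 0 without any DMSO array but A375 replicate 1, without SKMEL5 A-485 or without the 2 DMSO arrays. The Wnt shares were 19% lower and 4.76% higher, against 7.7% and 17.3% of all genes. TLE1 averaged -1.96 ± 0.13 (adjusted p 0.000396). DKK1 read 101 and 101 on the DMSO arrays of SKMEL5 and 53.5 on its A-485 array, 87.9 and 88.2 against 32 in WM2664, and 4794 and 4738 against 250 in A375, so its size rests on A375, and the mean of -2.21 became -1.19 without the A375 A-485 array. Its call ended without WM2664 DMSO replicate 1 (-2.28), WM2664 DMSO replicate 2 (-2.28) or the WM2664 A-485 array (-2.58), without the 2 DMSO arrays (-2.08) and with a floor of 64 (-1.79). Of 18 Notch genes tested, 5 were shared lower (NOTCH2, the effectors HES1 and HEY1, and the coactivators MAML2 and MAML3), which is 27.8%. MAML1 was shared higher (5.56%), a call that ended without SKMEL5 DMSO replicate 2 or any array of WM2664 or A375. HES1 had -0.90, -0.58 and -1.15, MAML2 -0.95, -0.98 and -1.19 and MAML3 -0.69, -1.35 and -1.57, with MAML3 within 2-fold of the floor on the A-485 arrays of SKMEL5 and A375. Without the 2 DMSO arrays 2 Wnt and 3 Notch genes were shared lower, and the Wnt count was also 2 without the WM2664 A-485 array.

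At the probe sets used, several falls had nearly the same size in every line. CDC42EP3, an effector of the GTPase CDC42 (chr2:37641944-37672949), read 1956 and 1985 on the DMSO arrays of SKMEL5 and 640.3 on its A-485 array, 1723 and 1662 against 542 in WM2664, and 1282 and 1287 against 428 in A375. The DMSO pairs almost coincide and the 3 differences of -1.62, -1.64 and -1.59 are nearly equal, with the smallest adjusted p of all genes tested (3.73e-05, mean -1.62 ± 0.05). TRIB2, a pseudokinase of the Tribbles family (chr2:12716936-12742734), read 2202 and 2138 on the DMSO arrays of SKMEL5 and 559 on its A-485 array, 4649 and 5050 against 1164 in WM2664, and 205 and 211 against 44.3 in A375. Its level in A375 was far below that in the other lines, and within 2-fold of the floor on the A-485 array. Its differences were -1.96, -2.06 and -2.23 (mean -2.08 ± 0.07, adjusted p 4.07e-05 by limma). A dimmer probe set of TRIB2 gave -2.20, -2.40 and -1.47, the smallest fall then being in A375. Of CDC42EP3, a dimmer one gave -1.87, -1.63 and -1.30, while others gave -1.89, -2.02 and -1.77 or -1.87, -1.87 and -1.61.

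Other large falls included genes of adhesion and the cytoskeleton, which were not a list tested here. NEDD9, a focal adhesion scaffold, had -1.76, -1.52 and -1.48, and BCAR3, an exchange factor adaptor that binds the related scaffold BCAR1, had -2.08, -1.47 and -2.27. MID1, a microtubule-associated ubiquitin ligase, had -1.46, -1.52 and -1.75. EVA1A, a membrane protein linked to autophagy, averaged -2.47 ± 0.11 (adjusted p 0.000212), and the noncoding RNA LINC00326 -1.95 ± 0.10 (adjusted p 0.000257), both close to the floor on the SKMEL5 A-485 array. Falls that ended at the floor, and are lower limits in at least 1 line, included LINC00473 (-1.86), SERTAD4 (-2.18) and the sialyltransferase ST3GAL1 (-1.83).

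**Figure D1:**
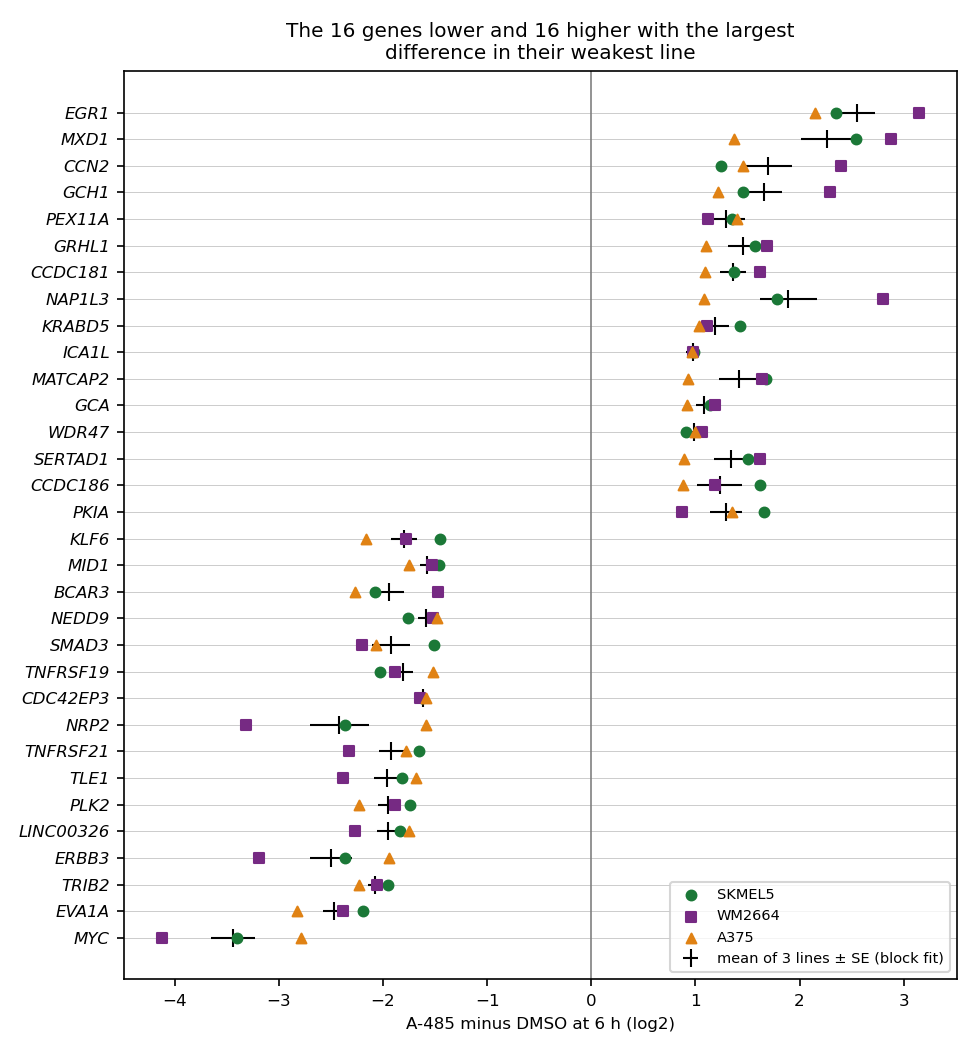
Differences between A-485 and DMSO at 6 h (log2, horizontal axis) for the 16 lower and 16 higher shared genes with the largest difference in their weakest line; symbols are the 3 lines and black bars the mean ± SE of the block fit. MYC lies furthest to the left with a mean of -3.44, EGR1 furthest to the right at 2.55, and the 3 symbols of CDC42EP3 and of ICA1L nearly coincide.

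EGR1, an immediate early zinc finger transcription factor (chr5:138465479-138469303), had the largest rise in its weakest line. EGR1 read 518 and 489.8 on the DMSO arrays of SKMEL5 and 2568 on its A-485 array, 332 and 284 against 2722 in WM2664, and 285 and 311 against 1320 in A375. All 3 A-485 arrays lie above every DMSO array of any line, and the mean difference was 2.55 ± 0.18 (adjusted p 0.000522), a 5.85-fold rise. The 250 bases before its start site (chr5:138465229-138465478, plus strand, RefSeq, GRCh38.p14) are shown because they hold 2 matches to the CArG box, the element bound by serum response factor, in capitals at 105 to 96 and 83 to 74 bases before the start. A match describes these letters only. SRF was itself shared higher.
EGR1: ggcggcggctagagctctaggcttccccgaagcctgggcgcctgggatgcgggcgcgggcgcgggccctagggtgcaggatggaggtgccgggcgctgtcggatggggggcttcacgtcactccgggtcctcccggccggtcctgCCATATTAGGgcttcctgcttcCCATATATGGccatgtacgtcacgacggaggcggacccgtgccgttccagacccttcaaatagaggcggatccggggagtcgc

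Immediate early genes as a group went both ways. Of 24 tested, 9 were shared higher (EGR1, FOS, JUNB, JUND, IER2, KLF2, NR4A2, SRF and ZFP36) and 5 shared lower (EGR3, IER3, KLF6, ZFP36L1 and ZFP36L2), with a median of -0.05. Those are 37.5% and 20.8% of the list, against 17.3% and 7.7% of all genes. FOS, the AP-1 subunit, had 0.61, 1.99 and 2.12, rising from at or near the floor in WM2664 and A375, so its rises there are lower limits. JUNB, another subunit, had 1.41, 1.16 and 0.54. KLF6, an immediate early factor of the KLF family, read 1217 and 1184 on the DMSO arrays of SKMEL5 and 437 on its A-485 array, 1560 and 1677 against 472 in WM2664, and 1060 and 928 against 222 in A375. It fell in each line, averaging -1.80 ± 0.12 (adjusted p 0.000522). ZFP36L1 and ZFP36L2, which destabilize AU-rich mRNAs, had -0.70, -1.53 and -2.05 and -1.07, -0.88 and -1.18, while their relative ZFP36 was shared higher. Of the 9 higher, a count of 3 was left without the SKMEL5 A-485 array and 3 without the 2 DMSO arrays, where FOS ended its call. The median turned to 0.23 without scaling and 0.06 without the 2 DMSO arrays.

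The KLF and SP factors, zinc finger proteins of GC-rich promoters, divided likewise. Of 16 tested, KLF3, KLF6, KLF9 and KLF11 were shared lower and KLF2, SP2 and SP4 shared higher. The shares were 25% lower and 18.8% higher, against 7.7% and 17.3% of all genes. KLF11 had -2.04, -1.39 and -1.52, ending at the floor in WM2664 and A375, and KLF3 -1.07, -2.20 and -1.5. SP4 had 0.78, 0.79 and 0.64. The median of the list, -0.26, turned to 0.02 without scaling. The higher count was 1 without the A-485 array of SKMEL5 or WM2664 or without the 2 DMSO arrays, and 6 without that of A375.

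Other large rises came from genes of unrelated roles. GCH1, the first enzyme of tetrahydrobiopterin synthesis, read 289 and 303 on the DMSO arrays of SKMEL5 and 814 on its A-485 array, 223 and 229 against 1104 in WM2664, and 361 and 367 against 844 in A375, averaging 1.65 ± 0.18 (adjusted p 0.00177). GRHL1, a grainyhead transcription factor of epithelia, had 1.57, 1.69 and 1.10, and SERTAD1, a coregulator of cyclin-dependent kinase activity, 1.5, 1.62 and 0.90. NAP1L3, a nucleosome assembly protein family member, had 1.78, 2.80 and 1.09, rising from near the floor in WM2664. ICA1L had 0.98, 0.98 and 0.96, and WDR47, a microtubule-associated protein, 0.91, 1.06 and 1.0. PKIA, an inhibitor of protein kinase A, had 1.66, 0.87 and 1.35, and the less studied MATCAP2, CCDC181, CCDC186 and GCA averaged 1.42, 1.36, 1.23 and 1.08. PEX11A, a peroxisome division factor, averaged 1.29 ± 0.18 from DMSO levels near the floor. Rises from the floor, lower limits in at least 1 line, included the ephrin EFNB2 (1.12), the zinc finger factor PLAG1 (1.11) and ZNF571 (1.10). PTGS2 (cyclooxygenase 2) averaged 1.46 and KIAA0753 1.21, values that became 0.96 and 0.61 without the WM2664 A-485 array. KIAA0753 was not called without any SKMEL5 array, either WM2664 DMSO array or A375 DMSO replicate 1, and neither was called without the 2 DMSO arrays.

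Genes above are read at the probe set with the highest mean scaled intensity over all 18 arrays. With the mean of a gene's probe sets, 114 of 117 named genes were still tested and 0 of their calls ended. Sizes were smaller, among others, for NRP2 (-1.16), ERBB3 (-1.25), TLE1 (-1.25), SMAD3 (-1.07), NEDD9 (-0.65), ZFP36L1 (-0.65), KLF3 (-0.96), IGF1R (-0.50), MNT (-0.49), CCDC181 (0.65), KRABD5 (0.62) and HEXIM1 (0.55). They were also smaller for MAML3 (-0.42), SREBF1 (-0.53), KLF11 (-0.92), EFNB2 (0.66), TUBE1 (0.53), PKIA (0.82) and KDM5A (0.35). For MNT, SREBF1, TUBE1, HEXIM1 and ERBB3, among others, the mean takes in a probe set at the floor on all 9 arrays. Such a probe set has a difference of 0 and so makes the mean smaller. Probe sets above the floor can read other ends or isoforms of the transcript, which was not tested.

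**Figure D2:**
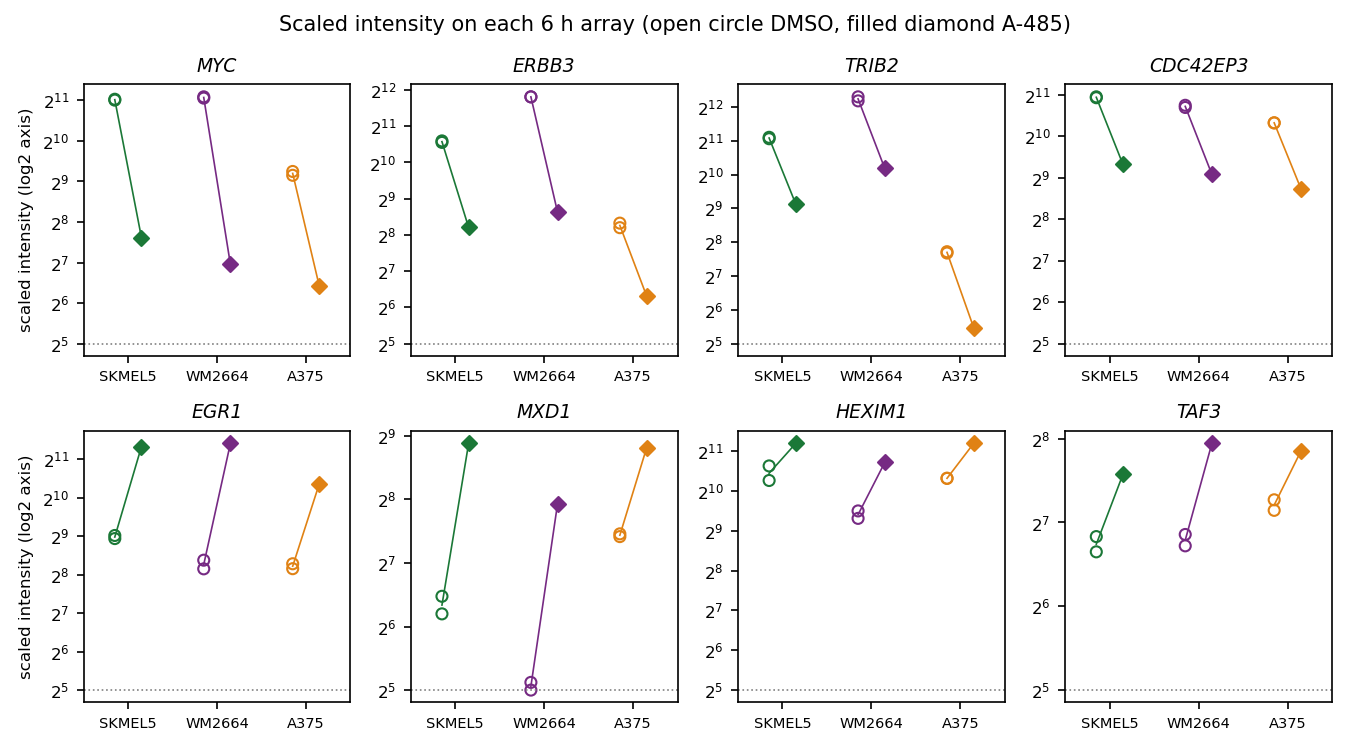
Scaled intensity (log2 axis) on each 6 h array for 8 genes; open circles are the 2 DMSO arrays of a line, filled diamonds its A-485 array, and the dotted line is the floor of 32. The diamonds lie below both circles in every line for MYC, ERBB3, TRIB2 and CDC42EP3 and above them for EGR1, MXD1, HEXIM1 and TAF3.

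Genes of the RNA polymerase II machinery rose as a broad group with small sizes. Of 43 Mediator subunits and general transcription factors tested, 25 were shared higher (58.1%, against 17.3% of all genes) and MED22 and GTF2H1 shared lower, with a median of 0.29 against 0.05. The higher members comprised 13 MED subunits with their kinase CDK8, 8 TAF subunits of TFIID, GTF2A1, GTF2B and GTF2F1. TAF3, the TFIID subunit that reads H3K4me3, read 100.4 and 114 on the DMSO arrays of SKMEL5 and 191 on its A-485 array, 116 and 106 against 246 in WM2664, and 142 and 154 against 231 in A375. The groups do not overlap within any line, and the mean difference was 0.88 ± 0.10 (adjusted p 0.00223). TAF12 had 0.78, 0.73 and 0.47, and MED23, a Mediator tail subunit, 0.85, 0.72 and 0.50. GTF2H1, at -0.83, -0.56 and -0.10, was not called without 7 of the arrays taken singly, and MED22 turned to 0.04 without scaling.

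The count of 25 became 11 without the WM2664 A-485 array, 14 without that of SKMEL5, 15 without either WM2664 DMSO array, 16 without SKMEL5 DMSO replicate 1 or A375 DMSO replicate 1, and 11 without the 2 DMSO arrays that stand apart. It was 24 with scaling by the 75th percentile and 28 without scaling.

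Elongation factors and BET readers moved the same way. Of 31 tested, 14 were shared higher (45.2%, against 17.3% of all genes) and 0 lower (against 7.7%). The median was 0.21, against 0.05 over all genes. They included BRD2 and BRD3, which read acetylated histones, CCNT1, the cyclin of P-TEFb, HEXIM1, LARP7 and MEPCE, which hold P-TEFb inactive in the 7SK particle, and PAF1, CTR9 and LEO1 of the PAF complex. HEXIM1 (chr17:45148475-45152099) read 1581 and 1227 on the DMSO arrays of SKMEL5 and 2342 on its A-485 array, 723 and 635 against 1678 in WM2664, and 1277 and 1272 against 2340 in A375. Each A-485 array lies above both controls, with a mean of 0.98 ± 0.13 (adjusted p 0.00309). BRD2 had 0.68, 1.14 and 0.64 and CTR9 0.64, 0.87 and 0.39. Without the A-485 array of SKMEL5 or WM2664 the count was 7 or 9, and without the 2 DMSO arrays 5.

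Among chromatin enzymes, the transcripts of the drug's targets were not shared at the probe sets used. EP300 averaged 0.37 ± 0.11 (adjusted p 0.039), with 0.54, 0.55 and 0.02, and its A-485 array in A375 lay between the controls. At its second probe set, of similar brightness, EP300 had 0.63, 0.57 and 0.32. The call ended with a floor of 16, with no filter on dim genes, without the 2 DMSO arrays, and without any 1 array other than A375 DMSO replicate 2 or the A375 A-485 array, with values from 0.28 to 0.40 where 1 array was left out. CREBBP had 0.72, 0.65 and 0.03 and did not pass (adjusted p 0.0502), and this depended on the settings. It passed without A375 DMSO replicate 1 (0.55) or the A375 A-485 array (0.68), with scaling by the 75th percentile or none, a floor of 64, deposited values over a floor of 1, a filter at 6.5, the mean of probe sets, both group-means fits and an intensity trend. Of 26 acetyltransferases, deacetylases and their partners tested, 6 were shared higher (KAT6A, KAT7, HDAC3, SIRT1, SIRT7 and BRPF1) and KAT2B shared lower, with a median of 0.16. Those are 23.1% and 3.85% of the list, against 17.3% and 7.7% of all genes. SIRT1, a NAD-dependent deacetylase, had 0.69, 1.30 and 0.71, and KAT2B (PCAF), an acetyltransferase that binds p300, -0.63, -0.56 and -0.23, a call that ended without the 2 DMSO arrays or without scaling. The count of 6 became 2 without the WM2664 A-485 array and 2 without the 2 DMSO arrays.

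Of 45 histone methylation enzymes tested, 10 were shared higher and 0 lower, with a median of 0.19. The 10 were SETD2, NSD2, the Polycomb subunits EZH2, EED and SUZ12, and the demethylases KDM3B, KDM4A, KDM5A, KDM6A and PHF8. KDM5A had 0.59, 0.79 and 0.40, EZH2 0.61, 0.56 and 0.39 and KDM4A 0.47, 0.57 and 0.46. Their share of 22.2% is near the background of 17.3%, and the count was 6 without the 2 DMSO arrays and 21 without scaling.

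Zinc finger genes named ZNF, many of them sequence-specific repressors that carry a KRAB domain, leaned higher. Of 337 tested, 97 were shared higher (28.8%, against 17.3% of all genes) and 14 lower (4.15%, against 7.7%). The median was 0.21, against 0.05 over all genes, and 0.20, 0.18 and 0.20 in the lines. On chromosome 19, which holds the main ZNF clusters, lay 50 of the 97 (51.5%) and 149 of the 337 (44.2%). ZNF211 read 150.4 and 139.7 on the DMSO arrays of SKMEL5 and 248 on its A-485 array, 165 and 169.9 against 297 in WM2664, and 151 and 117 against 248 in A375, averaging 0.83 ± 0.09 (adjusted p 0.00163). ZNF709 had 0.79, 0.85 and 1.09, and KRABD5, a KRAB domain gene without a ZNF name, 1.43, 1.11 and 1.03. ZNF587B had -0.52, -0.45 and -0.35 and was among the 14 shared lower, a call that ended without scaling. Probe sets of such paralogs may share signal. The count of 97 became 54 and 59 without the A-485 array of SKMEL5 and WM2664, 42 without the 2 DMSO arrays and 148 without scaling. The lower count was 4 and 8 without the A-485 array of WM2664 and SKMEL5, 5 to 9 without a DMSO array of those lines, 22 without the A375 A-485 array, 2 without the 2 DMSO arrays and 1 without scaling.

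**Figure D3:**
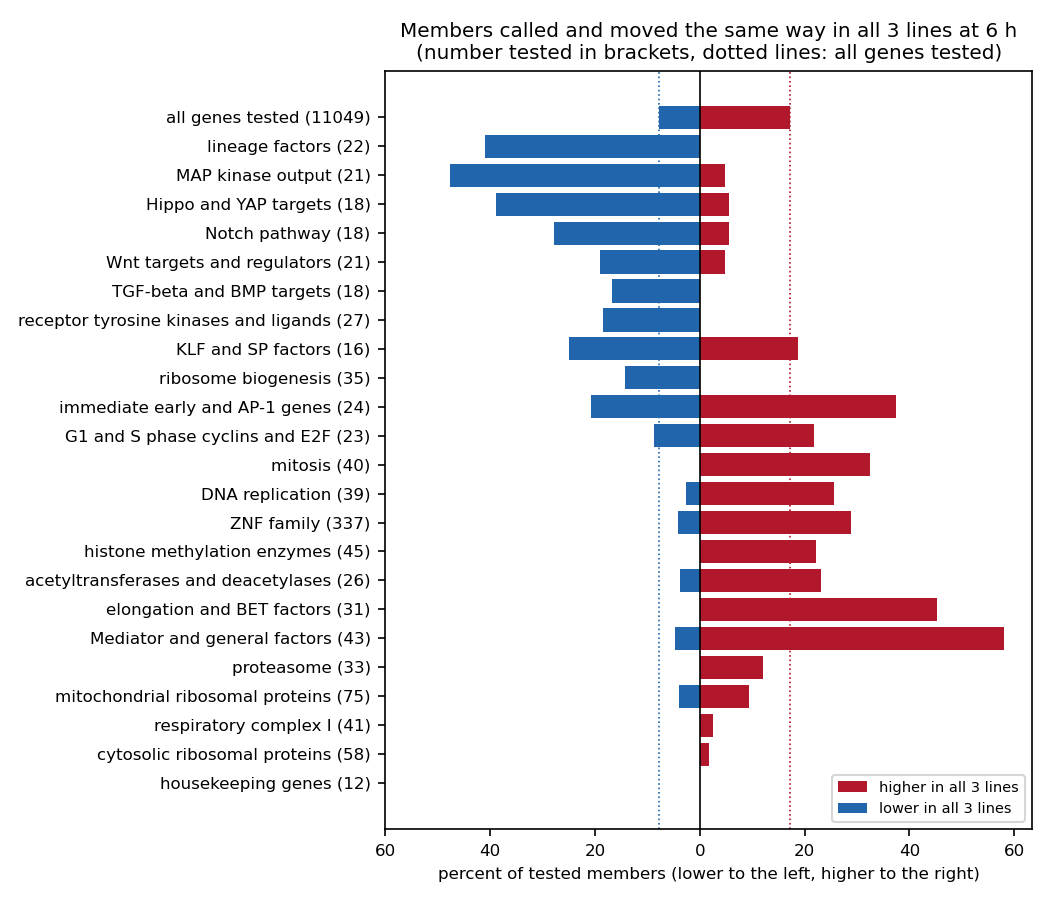
Percent of tested members of each gene list that passed the test and moved the same way in all 3 lines, lower to the left and higher to the right, with the number tested in brackets and dotted lines at the values of all genes (7.7% and 17.3%). Mediator and general factors reach 58.1% to the right, MAP kinase output 47.6% to the left, and housekeeping genes 0 on both sides.

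The promoters of the genes that rose and fell differed in base composition. RefSeq promoters (the 250 bases before the start, GRCh38.p14) were at hand for 1627 of the 1908 shared higher genes, 682 of the 851 shared lower and 9128 of the 11049 tested. The median GC content was 62.8% in the higher, 68.4% in the lower and 64.8% in all. Of 14 motifs searched on both strands, CCGGAAG, the core of ETS family sites, was in 22.1% of the higher, 7.92% of the lower and 16.7% of all promoters, and in 30.6% of 85 from the ZNF genes that rose. CCAAT was in 40.7%, 29.5% and 35.8%. TATAAA was in 4%, 6.89% and 5.13%, TGACTCA, an AP-1 site, in 1.23%, 3.67% and 2.37%, and the CArG box in 0.983%, 1.76% and 1.02%. The SP1 core GGGCGG was in 66.6%, 71% and 67.4%, the E-box CACGTG in 7.74%, 10.7% and 9.26%, and the cAMP response element TGACGTCA in 3.81%, 2.35% and 2.98%. The palindrome of NRF1 was in 3.01%, 1.03% and 2.1%. The MITF type of E-box, CATGTG, was in 4.55%, 6.6% and 5.59%, and the TEAD site GGAATG in 8.85%, 11.9% and 9.24%. The SMAD palindrome GTCTAGAC was in 0.0615%, 0.147% and 0.121%, the ATF4 type TGACGCAA in 1.04%, 0.293% and 0.898%, and the YY1 site CCATCTTG in 1.6%, 0.44% and 1.19%. Each was counted on its own, so matches of different motifs may overlap. No test was made of these shares. The GC content of the groups moves with them, and its part was not tested. To show both classes, TAF3 (chr10:7818255-7818504, plus strand) and TAF12 (chr1:28643068-28643317, minus strand) are given with CCGGAAG or its reverse complement in capitals, and TRIB2 (chr2:12716686-12716935, plus strand) and CDC42EP3 (chr2:37672950-37673199, minus strand), which fell, hold no match in this window.
TAF3: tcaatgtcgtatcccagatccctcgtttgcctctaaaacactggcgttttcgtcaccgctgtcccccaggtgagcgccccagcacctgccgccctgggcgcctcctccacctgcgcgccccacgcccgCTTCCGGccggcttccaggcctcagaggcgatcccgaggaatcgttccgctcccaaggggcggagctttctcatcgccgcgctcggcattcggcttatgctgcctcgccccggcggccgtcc
TAF12: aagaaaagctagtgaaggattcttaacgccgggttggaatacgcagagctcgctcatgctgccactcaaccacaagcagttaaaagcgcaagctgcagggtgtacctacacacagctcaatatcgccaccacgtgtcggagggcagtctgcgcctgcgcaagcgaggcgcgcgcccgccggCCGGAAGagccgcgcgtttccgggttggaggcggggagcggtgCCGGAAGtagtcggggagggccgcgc
TRIB2: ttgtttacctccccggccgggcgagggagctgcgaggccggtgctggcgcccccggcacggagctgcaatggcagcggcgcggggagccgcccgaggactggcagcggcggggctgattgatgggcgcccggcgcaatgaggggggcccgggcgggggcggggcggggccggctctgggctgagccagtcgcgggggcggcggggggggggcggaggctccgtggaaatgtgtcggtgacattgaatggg
CDC42EP3: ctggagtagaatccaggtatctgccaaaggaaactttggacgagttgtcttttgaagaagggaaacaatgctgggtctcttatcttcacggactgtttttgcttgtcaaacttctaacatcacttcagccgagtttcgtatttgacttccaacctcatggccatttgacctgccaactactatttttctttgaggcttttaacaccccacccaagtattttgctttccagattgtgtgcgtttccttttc

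By position and length the groups also differed as descriptions. Chromosome 19 held 5.82% of the shared higher genes, 3.29% of the shared lower and 6.28% of all tested. The shared lower genes had a median gene length of 45.7 kb, the shared higher 35.3 kb and all tested 30.8 kb. Genes classed as long noncoding RNA numbered 28 of the 851 lower and 15 of the 1908 higher. Their share of all genes tested was not computed. The median DMSO level was 9.09 for the lower, 8.63 for the higher and 8.33 for all, as mean log2 scaled intensity over the 3 lines, levels that depend on the probe sets.

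Of 23 G1 and S phase genes tested, CCND1 (cyclin D1) and CDK6, its kinase, were shared lower, and CCNE2, CCNA2, TFDP1, TFDP2 and SKP2 shared higher. These are 8.7% and 21.7% of the list, against 7.7% and 17.3% of all genes, with a median of 0.18. CCND1 read 1292 and 1317 on the DMSO arrays of SKMEL5 and 648 on its A-485 array, 2817 and 2659 against 1644 in WM2664, and 2094 and 2514 against 938 in A375, averaging -1.01 ± 0.11 (adjusted p 0.00176). CDK6 had -0.90, -1.36 and -0.94. CCNE2 (cyclin E2) had 0.61, 0.86 and 0.70 and SKP2, which marks CDK inhibitors for degradation, 0.48, 0.33 and 0.22, a call that ended without the 2 DMSO arrays. CDKN1C, a CDK inhibitor, was the only 1 of 5 tested to be shared lower, at -1.07, -0.88 and -1.09. The higher count was 1 without the 2 DMSO arrays, and the lower count 4 without the A375 A-485 array.

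Of 39 DNA replication genes 10 were shared higher, and of 40 mitosis genes 13 were shared higher and 0 lower, with medians of 0.14 and 0.21. Shared higher were 25.6% and 32.5% of these lists, against 17.3% of all genes. RFC5 was shared lower at the probe set used (-0.38), while its other probe sets were higher (0.35 and 0.28), and no replication gene was shared lower without the 2 DMSO arrays. RRM2, a ribonucleotide reductase subunit, had 0.69, 0.46 and 0.24, and CDK1, the mitotic kinase, 0.49, 0.28 and 0.27. These counts were unstable. With scaling by the 75th percentile they were 4 and 9, and without the 2 DMSO arrays 1 and 5. The replication count was 6 without either WM2664 replicate 1 array. Without single arrays the mitosis count ranged from 1 (SKMEL5 A-485) and 2 (WM2664 A-485) over 4 (SKMEL5 DMSO replicate 1 and either WM2664 DMSO array), 5 (SKMEL5 DMSO replicate 2) and 8 (A375 DMSO replicate 2) to 23 (A375 A-485).

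Survival and inflammatory genes gave few shared members. MCL1, an antiapoptotic BCL2 protein with a short-lived transcript, read 1548 and 1530 on the DMSO arrays of SKMEL5 and 3277 on its A-485 array, 1322 and 1224 against 2939 in WM2664, and 3384 and 3466 against 4353 in A375, averaging 0.88 ± 0.15 (adjusted p 0.00785), and with PMAIP1 was 1 of 2 shared higher of 18 in its family, a count of 1 without the 2 DMSO arrays or any 1 array other than A375 DMSO replicate 2 or A375 A-485. MCL1 and PMAIP1 make up 11.1% of their family, against 17.3% shared higher of all genes. Of 19 NF-kappaB targets tested, NFKBIA, TNFAIP3, CXCL1 and CXCL8 were shared lower and REL and PTGS2 higher, counts of 2 and 0 without the 2 DMSO arrays. The full shares were 21.1% lower and 10.5% higher, against 7.7% and 17.3% of all genes. The higher count was 1 without WM2664 DMSO replicate 1, SKMEL5 DMSO replicate 2 or A375 DMSO replicate 2. CXCL1, a chemokine for neutrophils, had -0.97, -1.73 and -1.66, and CXCL8 -0.51, -1.43 and -1.22. Of 36 interferon response genes 3 were shared higher and 3 lower (8.33% each). The counts were 1 and 0 without the WM2664 A-485 array, 8 and 1 without that of A375, and 1 and 1 without the 2 DMSO arrays. Of 14 circadian clock genes, NPAS2 (-0.83, -0.74 and -0.64), an activator of the clock, and NR1D2 (-1.42, -1.29 and -0.81), a repressor, were shared lower and 0 higher, with 4 lower without the A375 A-485 array. NPAS2 and NR1D2 are 14.3% of that list.

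Most metabolic and protein-handling groups stayed near the background of 17.3% shared higher and 7.7% shared lower, or below it. SREBF1, the regulator of lipid synthesis, was shared lower at -1.10, -1.23 and -0.84. Among 58 cytosolic ribosomal proteins 1 was shared higher and 0 lower, among 41 complex I genes 1 and 0, among 33 proteasome genes 4 and 0, among 75 mitochondrial ribosomal proteins 7 and 3, and among 12 housekeeping genes 0 and 0. With scaling by the 75th percentile 9 cytosolic ribosomal proteins and 2 housekeeping genes were shared lower. Without the A-485 array of A375 the higher counts were 10 for the proteasome and 14 for mitochondrial ribosomal proteins, and without any 1 array of SKMEL5 or WM2664 or A375 DMSO replicate 1 they were 0 or 1 and 2 to 4. They were 0 and 2 without the 2 DMSO arrays.

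Stress groups gave mixed counts. Of 24 p53 targets 7 were shared higher and 3 lower, of 24 heat shock genes 6 and 1, and of 27 integrated stress response genes 6 and 4. Shared higher were 29.2%, 25% and 22.2% of these lists against 17.3% of all genes, and shared lower 12.5%, 4.17% and 14.8% against 7.7%. Without the 2 DMSO arrays these became 2 and 1, 1 and 0, and 2 and 0. The p53 count was 4 without any 1 array of WM2664. The heat shock count was 2 without SKMEL5 A-485 or WM2664 DMSO replicate 1, 3 without WM2664 A-485 or either SKMEL5 DMSO array, and 2 with scaling by the 75th percentile.

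A shared direction did not mean an equal size. A moderated F test of the difference between lines at 6 h called 1542 of 11049 genes (14%), a count that became 561 without the A375 A-485 array, 909 without the 2 DMSO arrays and 362 without scaling. It called 211 of the shared lower genes (24.8%) and 6.97% of the shared higher. The rule for shared genes requires the same sign, so it selects against such differences. MITF (-1.34, -2.62 and -1.13) and ZFP36L1 (-0.70, -1.53 and -2.05) differed, with adjusted p of 0.00034 and 0.000671 by limma. CDC42EP3 and ICA1L did not pass (adjusted p 0.92 and 0.999).

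In some genes the lines differed in sign. Of the genes called in that test, 631 had A-485 arrays beyond both DMSO arrays upward in 1 line and downward in another. The share of all genes tested that did so was not computed. With 2 controls per line, 1 array can lie beyond both without a response, so this count does not measure how many genes respond in opposite directions. The 6 with the widest spread included WNT5A, a noncanonical Wnt ligand, which read 106 and 134 on the DMSO arrays of SKMEL5 and 223 on its A-485 array, 51 and 52.4 against 75.5 in WM2664, and 1385 and 1337 against 288 in A375. The differences of 0.90 in SKMEL5 and 0.55 in WM2664 did not pass within the line (adjusted p 0.0514 and 0.196), while it fell in A375, where its level was highest (adjusted p 0.00269 for the difference between lines). AJUBA, a LIM protein of cell junctions, had 0.89, 0.60 and -2.02, and F3, tissue factor, 0.96, 1.05 and -2.86, rising from near the floor in SKMEL5 and WM2664 and ending at it in A375. BIK, a proapoptotic BCL2 protein, had 0.95 in SKMEL5 and -2.08 in A375. BCL9L, a Wnt coactivator, had 0.37, -1.89 and -2.77, close to the floor on all 3 A-485 arrays. Its SKMEL5 value did not pass (adjusted p 0.334), and its other probe set was lower in all 3 lines (-0.39, -0.49 and -1.76). NCKAP5L had -1.67 in SKMEL5 and 2.05 in A375. BIK and NCKAP5L lay at the floor in WM2664.

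Most of the shared 6 h response had the same sign at 24 h. The test that selected these genes did not use the 24 h arrays, but the scaling and the choice of probe sets did. The calls at 24 h also take their spread from the 6 h and 24 h arrays together. They are therefore not independent of the selection. Of the 1908 shared higher genes, 1646 had the same sign at 24 h, 1083 were called higher and 47 lower, where 22% and 14.4% of all genes were called. Of the 851 shared lower genes, 747 had the same sign, 497 were called lower and 21 higher. The median differences were 0.30 and -0.44 at 24 h. The difference between the times was called for 179 genes (1.62%), among them 50 of the shared higher, 41 of which moved back toward DMSO, and 48 of the shared lower, again 41 moving back. That total of 179 ranged from 22 without the WM2664 A-485 array to 217 without that of A375, and was 2 without the 2 DMSO arrays. The total was 69 without the SKMEL5 A-485 array, 66 to 88 without any 1 of the 6 h DMSO arrays, and 0 without scaling, where 1618 genes had an unadjusted p under 0.05 by limma. The members were selected at 6 h, and the part of that selection in the smaller values at 24 h was not tested.

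MYC had -2.53 at 24 h (adjusted p 4.92e-05) and EGR1 2.06 (adjusted p 6.03e-05), with no called change from 6 h (adjusted p 0.175 and 0.391). MAML3 went from -1.20 to 0.35, and the change of 1.55 ± 0.19 was called (adjusted p 0.00777). CXCL8 went from -1.06 to 0.43 (adjusted p 0.0177) and SMAD3 from -1.92 to -0.65 (adjusted p 0.0295). Lower values at 24 h, each with a called change, were seen at the probe sets used for 3 genes. These were the metalloprotease inhibitor TIMP3, from -0.83 to -2.25 (adjusted p 0.0497 by limma), CDKN1C, from -1.01 to -2.31, and the reductase CYB5R2, from -0.81 to -2.06. A dimmer probe set of TIMP3 already averaged -2.11 at 6 h, while others gave -0.89 and -0.90. Dimmer ones of CDKN1C above the floor gave -1.12, -1.20 and -1.48 at 6 h. Other probe sets were not compared between the times. TUBE1, epsilon-tubulin, went from 1.06 to -0.40 (adjusted p 0.0177), and IGF1R from -0.96 to -0.08 (adjusted p 0.0166). TAF3 went from 0.88 to 0.15 (adjusted p 0.0458), while HEXIM1 had 0.70 at 24 h with no called change (adjusted p 0.507).

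**Figure D4:**
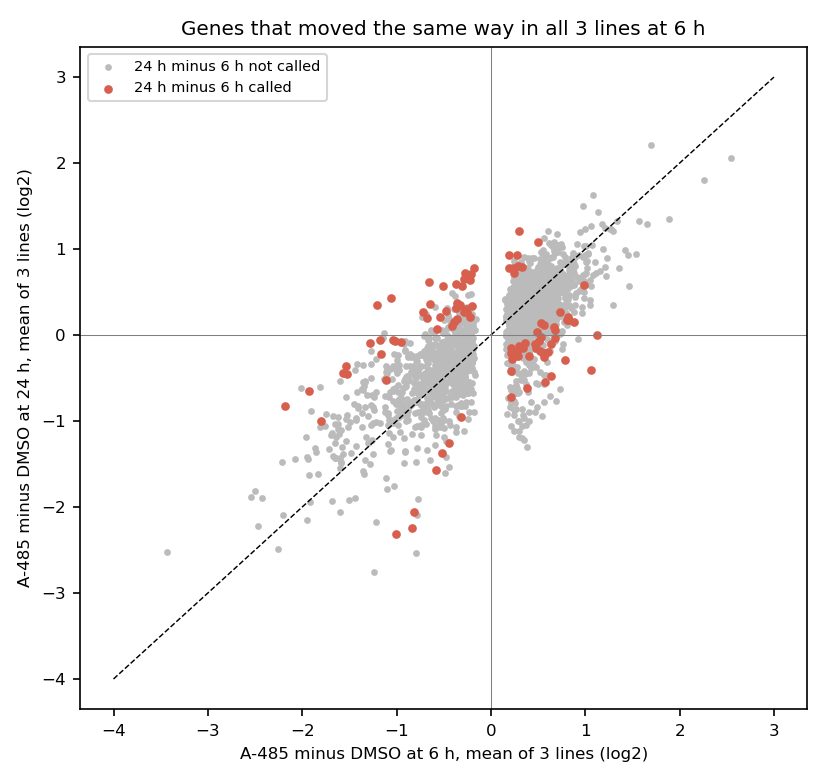
Mean difference of the 3 lines at 24 h (vertical axis, log2) against that at 6 h (horizontal axis, log2) for the shared genes; red points are the 98 whose change between the times was called, and the dashed line marks equal values. Most points lie in the lower left and upper right corners, with medians at 24 h of -0.44 for the lower and 0.30 for the higher genes.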

How the data were processed

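RNA of the 9 arrays at 6 h and the 9 at 24 h was hybridised to HG-U133 Plus 2.0 arrays after 3' IVT labelling, per the labels' protocols. The deposited values are linear intensities of 54613 probe sets, of which 20.1% to 22% per array lie below 0. The software behind the deposited values is not given in the sources used here. The number of arrays limits the precision, and medians of the deposited intensities were 20.7 to 28.6.

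Intensities were quantile-normalized over all 18 arrays, set to at least 32 and taken to log2. Of the probe sets, 41091 carried 1 gene symbol, 1801 several and 11721 none, and 41037 were matched to current names. The probe set brightest over the 18 arrays stood for each of 19775 genes. A mean log2 of at least 5.5 over the 9 arrays left 11049 genes, and 8726 were not tested. limma 3.58.1 (R 4.3.3) fitted line as block plus treatment, with 5 residual degrees of freedom. Single lines and their differences came from a group-means fit of all 18 arrays, and 24 h minus 6 h from a fit with line by time as block. The scripts were tested on simulated data.

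The members and the 42 gene lists (1667 entries, 1335 tested) were chosen with earlier results of these data known. Named genes were MYC, MITF, EP300 and CREBBP; the 16 shared genes per direction with the largest difference in the weakest line; up to 5 per direction at the floor; up to 3 shared members per list and direction; 6 opposed between lines; and 4 per direction that changed from 6 h to 24 h. Some shared members are listed by name alone to account for a count. The text gives values for most of these and leaves the rest out. Replicate numbers were not used as pairs, and every A-485 array is numbered replicate 1. In each line, the difference between its 2 DMSO arrays was correlated with its response relative to the other lines. The correlations were -0.016, 0.0926 and -0.00591 in the 3 lines. With 1 A-485 array per line, they cannot exclude a pairing. Promoters came from RefSeq tables (GRCh38.p14). Alternatives covered scaling, floor, filter, probe sets, model, replicate block and arrays left out.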

Additional observations from a re-analysis of the deposited data

Results flagged for a closer look

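Named genes are given here whose response differed between the 3 lines or between 24 h and 6 h, each with its adjusted p by limma in brackets. No group has over 2 arrays, so single samples could not be set against their group.

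Between the lines at 6 h, the 6 genes with the widest spread of opposite sign were AJUBA (0.000157), F3 (5e-04), WNT5A (0.00269), BIK (8.78e-05), BCL9L (0.00184) and NCKAP5L (0.000531). Among genes that fell in each line, the fall was largest in WM2664 for BAMBI (0.00079), ERBB3 (0.00261), IRS2 (0.00344), KLF3 (0.00255), LINC00473 (0.03), MITF (0.00034), MYC (0.000966), NRP2 (0.0295), PMEPA1 (0.0206), SNAI2 (0.00968) and TLE1 (0.0222). It was largest in A375 for BCAR3 (0.0052), DKK1 (0.000456), DUSP4 (0.00129), FJX1 (0.00129), KLF6 (0.0182), MAML3 (0.0262), PHLDA1 (0.00442), SOX10 (0.00166) and ZFP36L1 (0.000671), and in SKMEL5 for GTF2H1 (0.0481). Among genes that rose, the rise was largest in WM2664 for CTR9 (0.0331), EFNB2 (0.000563), EGR1 (0.0151), GCH1 (0.00605), MCL1 (0.00362), MXD1 (0.00492), NAP1L3 (0.00625) and PTGS2 (0.00446). It was largest in SKMEL5 for PLAG1 (0.0475) and RRM2 (0.0395), and in A375 for FOS (0.0103). Each line has a single A-485 array at 6 h, so line and array cannot be told apart.

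Between the times, the mean difference at 24 h was smaller and of the same sign for IGF1R (0.0166), KLF6 (0.0282), MAML2 (0.046), NR1D2 (0.0451), SERTAD4 (0.0391), SMAD3 (0.0295), SP4 (0.0451), TAF3 (0.0458) and WDR47 (0.03). It was larger at the probe sets used for CDKN1C (0.0295), CYB5R2 (0.0332) and TIMP3 (0.0497). It was of the opposite sign for CXCL8 (0.0177), MAML3 (0.00777) and TUBE1 (0.0177), and about 0.00 for EFNB2 (0.0221). A dimmer probe set of TIMP3 already averaged -2.11 at 6 h. SOX10 had its smallest difference in A375 at its other probe set, and BCL9L was lower in all 3 lines at its other one. EFNB2 went from 1.12 to 0.00 and KLF6 from -1.80 to -1.0.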

How the results depend on the processing

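The counts below are of genes called by limma, in total, higher and lower, then of genes shared by the 3 lines, higher and lower. With scaling by the 75th percentile, quantile normalization over the 9 arrays, a floor of 16 or 64, both other filters, both other uses of probe sets and an intensity trend, these 5 counts stayed within 1.5 times, though not for the same genes. Without scaling the total stayed within that range, but the higher count rose to 3679 and the lower fell to 455, with 2878 and 243 shared. Deposited values over a floor of 1 gave 3270 higher, 367 lower and 287 shared lower. A group-means fit of 18 arrays called 4958 genes, 2041 of them lower, and one of the 9 arrays 4968 and 2056. With the 2 DMSO arrays that stand apart left out, the counts were 1156, 735, 421, 693 and 385. Leaving out 1 array gave 1645 to 3740, 1009 to 2351, 636 to 1389, 970 to 2267 and 599 to 1332.

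The 1542 genes called between the lines became 362 without scaling, 82 with deposited values over a floor of 1, 909 without the 2 DMSO arrays and 561 to 1306 without single arrays. The 179 called between the times became 0 without scaling (limma, 1618 at an unadjusted p under 0.05), 1 with deposited values over a floor of 1, 86 with a floor of 16, 87 without cross-hybridizing probe sets, 323 with an intensity trend, 2 without the 2 DMSO arrays and 22 to 217 without single arrays. The other alternatives run kept both within 1.5 times.

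With the cell line and replicate number together as a replicate block, which sets each A-485 array against 1 DMSO array alone, 0 genes passed in any of the 5 counts, with 2791 at an unadjusted p under 0.05 and a smallest adjusted p of 0.0909. Whether the numbers pair these samples is not known, and every A-485 array is numbered replicate 1.

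MED22 (0.0391), NIP7 (0.0419) and UBTF (0.04948) turned positive without scaling and with deposited values over a floor of 1. The mean differences of AJUBA (-0.71 to 0.74), F3 (-0.95 to 1.01) and WNT5A (-0.85 to 0.72) ranged over 0 when single arrays were left out, with the positive end without the A375 A-485 array, the line in which they fell. The cause of the other changes was not tested. Of 117 named genes, 17 lost their call without the 2 DMSO arrays. Without scaling 6 lost it, besides the 3 that turned positive. Signals near the floor limit 108 of the shared lower genes, among others, whose differences in at least 1 line are compressed.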

Other observations

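Of 31 homeobox genes tested, HOXC4, HOXC9, MEIS1 and ZHX2 were shared higher and DLX1 lower, with a median of 0.11. Those shares of 12.9% and 3.23% stood against 17.3% and 7.7% of all genes. Without the 2 DMSO arrays 2 were shared higher and 0 lower. The higher count was 1 without the SKMEL5 A-485 array and 8 without that of A375. Of 24 zinc transport and metallothionein genes, 5 were shared higher (20.8%) and 3 lower (12.5%), and 2 and 1 without the 2 DMSO arrays. The count of 5 was 2 without the SKMEL5 A-485 array and 1 without that of WM2664. Of 17 aminoacyl-tRNA synthetases 4 were shared higher (23.5%). That count was 0 with scaling by the 75th percentile or without the 2 DMSO arrays, and 1 without scaling. It was 0 to 2 without any 1 array but the A375 A-485 array. Of 20 histone genes 1 was shared higher (5%).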
